A study of Mus musculus with 8 samples.

Results

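The expression of genes that are known from mast cells and basophils was compared between *Zeb1-/-* EpCAM+ LSK cells and *Zeb1-/-* EpCAM- LSK cells. The 10 genes were taken by symbol from the 54532 genes of the count table: the granule proteases *Cpa3*, *Mcpt8*, *Gzmb*, *Cma1*, *Tpsb2* and *Prss34*, the histamine-forming enzyme *Hdc*, the IgE receptor chains *Fcer1a* and *Ms4a2*, and the IL-33 receptor *Il1rl1*. Of these, 8 had enough reads to be tested, as 13560 of all genes had, and *Cma1* and *Tpsb2* did not pass the filter on low counts, with no read in any EpCAM+ library and few in some EpCAM- libraries. LSK cells are bone marrow cells that lack lineage markers and carry SCA-1 and C-KIT, a gate that holds stem and multipotent progenitor cells, and no mast cells or basophils were sorted.

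RNA-Seq was performed on 4 EpCAM+ and 4 EpCAM- samples, sorted from the bone marrow of *Zeb1-/-* mice on the C57BL/6 strain background at 8 to 12 weeks of age, on day 14 counted from the final pIpC injection. Both groups carry the same deletion, made by *Mx1-Cre* after pIpC, and the labels separate the groups by the EpCAM gate. No samples from control mice enter the comparison, and the extent of deletion in either group was not measured here. The *Mx1* promoter answers to interferon and is active in many tissues besides blood, so deletion was not limited to LSK cells, and pIpC itself induces interferon in every mouse used here.

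Mast cells and basophils are granulated cells that carry IgE on a high-affinity receptor and release histamine, proteases and lipid mediators when antigen crosslinks it. The receptor joins an IgE-binding alpha chain (*Fcer1a*), a signal-amplifying beta chain (*Ms4a2*) and a signaling gamma chain (*Fcer1g*) that other Fc receptors share. Transcripts such as *Cpa3* appear early in this lineage, in progenitors of bone marrow, while chymases and tryptases such as *Cma1* and *Tpsb2* mark maturing mast cells, and *Mcpt8* and *Prss34* mark basophils.

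Between 14114491 and 17073546 reads were counted per library, and library totals of the groups overlapped (exact two-sided permutation test, n = 4 per group, p = 0.114). Values are given as CPM, read counts divided by the TMM-scaled library total and set to a common total, on which 3 reads correspond to 0.167 to 0.221 CPM. *Epcam*, the gene of the gate, was at 160.1 to 233 CPM in EpCAM+ and 1.25 to 8.97 CPM in EpCAM- libraries. *Zeb1* was at 14.8 to 23.7 CPM in EpCAM+ and 9.46 to 14.0 CPM in EpCAM- libraries, but its reads are summed over the whole gene, including parts outside the deletion, and do not check it. *Kit*, the gene of C-KIT, was read at 284 ± 39.8 CPM (SD, n = 4) in EpCAM+ and 208 ± 38.1 in EpCAM- libraries, and *Ly6a*, the gene of SCA-1, at 200.2 ± 105 and 41.2 ± 29.4 CPM. B and plasma cell markers were higher in EpCAM+, where 4 of 5 tested genes rose (median log2 fold change 5.02), against 21.8% of all tested genes. *Jchain* and *Ms4a1* had at most 4 and 2 reads in an EpCAM- library and passed the filter only through their EpCAM+ reads. Their calls are therefore no further support. With at least 10 reads required in every library, 1 gene of this list was called higher. The summed level of the list was 1573 to 2562 CPM in EpCAM+ replicates 2 to 4, against 160 to 314 CPM in EpCAM- libraries. The part of these markers in the results below was not tested. Replicate 1 of EpCAM+ stood apart from the others at 23605.5 CPM, and every call on the 10 genes was the same without it.

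Of the 8 tested genes, 6 were lower in EpCAM+ LSK cells, 2 did not pass the test and none was higher. The quasi-likelihood test of edgeR, with Benjamini-Hochberg adjusted p over all tested genes and a threshold of 0.05, gave this and each adjusted p below, and it called 42.6% of all tested genes, made up of 20.8% that were lower and 21.8% that were higher. Of all calls 51.2% were higher, which became 63.6% with upper-quartile scaling and 62.4% with library totals alone, while the 6 genes stayed lower under each scaling. In all 6 genes every EpCAM+ library lay below every EpCAM- library, which held for 20.0% of the tested genes, while 20.1% lay wholly above and 40.1% did not overlap in either direction. The fitted log2 fold changes (EpCAM+ over EpCAM-) of the 8 tested genes had a median of −2.77, against 0.02 over all tested genes. Among the 8, 5 fell by more than 2 on the log2 scale, as 191 tested genes did (1.41%). In bulk samples, fewer cells of a kind and less RNA per cell cannot be told apart, and this holds for every level below.

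**Figure D1:**
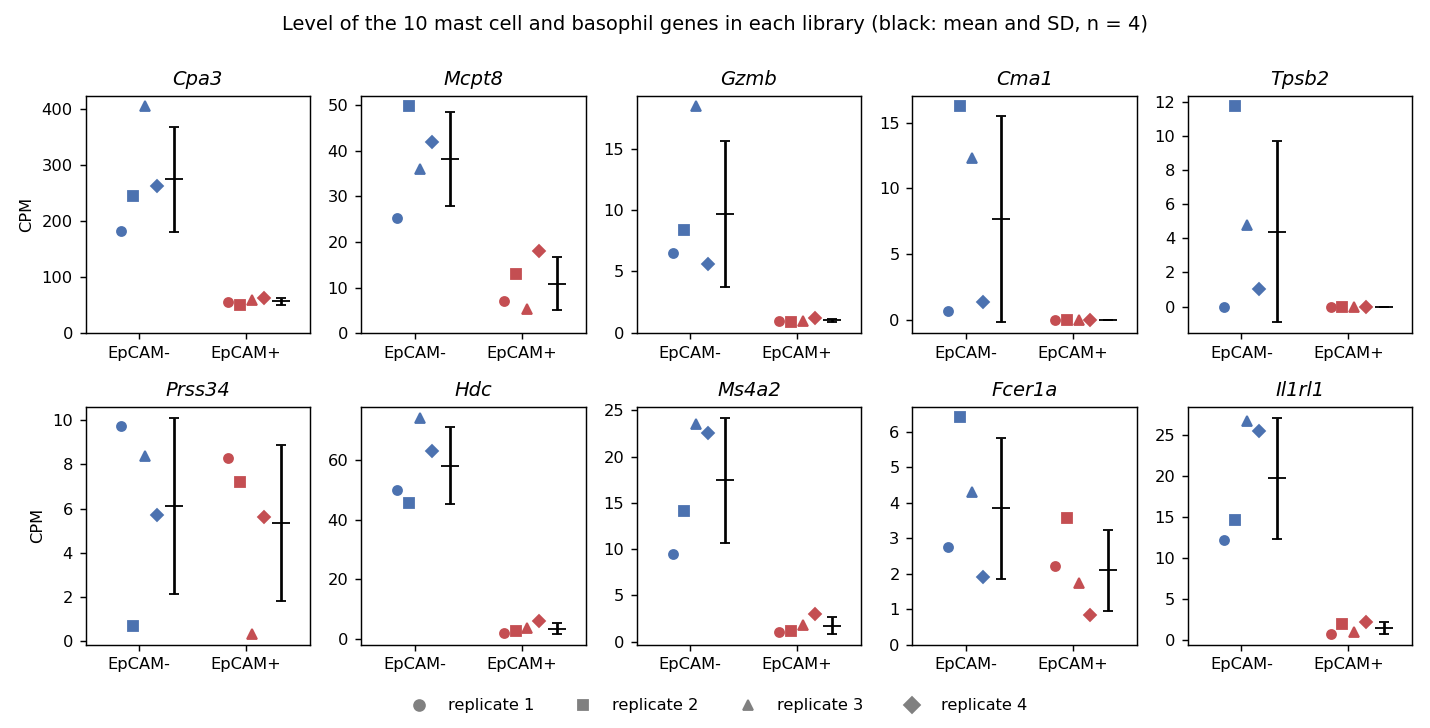
Level of each of the 10 genes (y axis, CPM, a separate scale per panel) in the 4 EpCAM- (blue) and 4 EpCAM+ (red) libraries, with the replicate number as the marker and the mean and SD (n = 4) in black. In *Cpa3*, *Mcpt8*, *Gzmb*, *Hdc*, *Ms4a2* and *Il1rl1* all EpCAM+ libraries lie below all EpCAM- libraries, *Cma1* and *Tpsb2* are at 0 in EpCAM+, and the groups overlap in *Fcer1a* and *Prss34*.

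The windows upstream of the genes are given here with their matches to a motif of the GATA factors. Among the genes of these factors, *Gata1* fell, *Gata2* did not pass the test and *Gata3* rose (below). A link between these factors and the 6 genes that fell was not tested. The 250 bases before the RefSeq start site (GRCm38.p6) were searched on both strands for AGATAA and TGATAA, motifs that GATA factors bind, and 9 of the 10 genes had such a window, *Il1rl1* with 2 windows for its alternative starts. A match was present in 6 of these 10 windows, belonging to *Ms4a2*, *Cpa3*, *Il1rl1*, *Fcer1a* and *Prss34*, against 16.6% of 32851 windows of all genes, and 2 windows held at least 2 matches, against 2.72%. The other windows, of *Hdc*, *Gzmb*, *Cma1* and *Mcpt8*, held neither AGATAA nor TGATAA. Other forms of the motif, such as the TGATAG in the *Hdc* window printed below, were not searched. Capitals below mark the matches, a match on the opposite strand reading TTATCT or TTATCA, and each sequence is written in the direction of transcription. The first 3 belong to genes that fell, *Fcer1a* and *Prss34* did not pass the test, and *Hdc* is the gene that fell furthest.
*Ms4a2* (chr19:11623720-11623969, minus strand): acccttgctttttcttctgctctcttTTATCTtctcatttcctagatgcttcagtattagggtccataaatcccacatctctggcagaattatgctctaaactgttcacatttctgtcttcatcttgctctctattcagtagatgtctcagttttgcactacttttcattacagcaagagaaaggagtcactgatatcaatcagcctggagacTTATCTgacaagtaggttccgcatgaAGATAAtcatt
*Cpa3* (chr3:20242182-20242431, minus strand): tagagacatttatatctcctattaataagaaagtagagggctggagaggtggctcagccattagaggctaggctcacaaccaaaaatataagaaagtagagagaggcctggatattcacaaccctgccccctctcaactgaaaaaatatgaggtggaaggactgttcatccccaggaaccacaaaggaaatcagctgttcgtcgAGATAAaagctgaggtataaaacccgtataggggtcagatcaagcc
*Il1rl1*, distal start (chr1:40429320-40429569, plus strand): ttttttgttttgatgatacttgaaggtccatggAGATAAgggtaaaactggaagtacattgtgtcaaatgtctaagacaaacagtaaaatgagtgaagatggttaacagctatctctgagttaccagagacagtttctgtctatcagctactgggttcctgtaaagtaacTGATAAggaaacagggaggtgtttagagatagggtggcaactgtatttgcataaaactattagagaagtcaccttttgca
*Fcer1a* (chr1:173227230-173227479, minus strand): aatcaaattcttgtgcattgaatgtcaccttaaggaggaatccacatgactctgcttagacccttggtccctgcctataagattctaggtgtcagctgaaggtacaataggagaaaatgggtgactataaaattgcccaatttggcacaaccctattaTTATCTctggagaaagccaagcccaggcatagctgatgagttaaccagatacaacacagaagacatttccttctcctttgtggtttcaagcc
*Prss34* (chr17:25298144-25298393, plus strand): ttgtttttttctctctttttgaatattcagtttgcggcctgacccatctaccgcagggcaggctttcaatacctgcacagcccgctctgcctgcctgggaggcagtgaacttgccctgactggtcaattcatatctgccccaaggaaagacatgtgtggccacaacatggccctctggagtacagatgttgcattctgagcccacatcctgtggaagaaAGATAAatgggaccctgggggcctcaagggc
*Hdc* (chr2:126618679-126618928, minus strand): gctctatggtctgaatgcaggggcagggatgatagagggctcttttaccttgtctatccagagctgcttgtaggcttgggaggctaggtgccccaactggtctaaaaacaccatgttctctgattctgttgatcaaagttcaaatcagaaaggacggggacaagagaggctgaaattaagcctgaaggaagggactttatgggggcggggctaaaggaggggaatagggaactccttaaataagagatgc

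The 3 matches of *Ms4a2* begin 224, 37 and 11 bases before the start site, that of *Cpa3* 46 bases before it and that of *Prss34* 31 bases before it. A match was thus found both upstream of genes that fell and upstream of the 2 that did not pass the test, and the motif did not separate them. The window of *Hdc* lies inside the longer *Hdc* gene model of the count table. CACCTG, the E-box that ZEB1 is known to bind, occurred in 1 window, that of *Mcpt8*, against 17.2% of all windows. It begins 60 bases before the RefSeq start and lies inside the longer *Mcpt8* gene model of the count table. CACGTG or CATGTG, E-boxes of the MITF family, occurred in the windows of *Fcer1a* and *Prss34*, against 17.6%. A match describes these letters only, and its absence says nothing of binding elsewhere.

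*Cpa3* (ENSMUSG00000001865, chr3:20215620-20242181), the carboxypeptidase of mast cell granules, was the most abundant of the 10 genes in both groups. It was at 55.5, 49.8, 58.9 and 63.5 CPM in EpCAM+ replicates 1 to 4 and at 183, 245, 406 and 263 CPM in EpCAM- replicates 1 to 4. The EpCAM+ libraries were close to each other, and EpCAM- replicate 3 was the highest of all. *Cpa3* had a log2 fold change of −2.27 ± 0.21 (SE, adjusted p = 0.000142), a level 4.82 times higher in EpCAM-, with between 851 and 5957 reads behind each value. *Cpa3* made up 62.3% to 79.9% of the summed CPM of the 10 genes in EpCAM+ and 59.4% to 66.0% in EpCAM- libraries. That sum was 77.7, 79.9, 73.6 and 100.1 CPM in EpCAM+ and 299, 413, 614 and 431 CPM in EpCAM- replicates 1 to 4.

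*Mcpt8* (ENSMUSG00000022157, chr14:56082166-56085273), a granule serine protease of basophils, fell least among the 6. Its levels were 7.11, 12.9, 5.41 and 18.0 CPM in EpCAM+ and 25.3, 49.8, 35.9 and 41.8 CPM in EpCAM- replicates 1 to 4. The highest EpCAM+ library, replicate 4, came near the lowest EpCAM- library, replicate 1, without reaching it. The log2 fold change was −1.82 ± 0.34 (SE, adjusted p = 0.00242).

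*Gzmb* (ENSMUSG00000015437, chr14:56258838-56262260), a serine protease of cytotoxic granules that mast cells and basophils also make, was scarce in EpCAM+, with 15 to 19 reads per library. It was at 0.978, 0.848, 0.948 and 1.23 CPM there and at 6.48, 8.34, 18.5 and 5.58 CPM in EpCAM- replicates 1 to 4. EpCAM- replicate 3 held more than any other library, and the lowest EpCAM- library, replicate 4, was still above all EpCAM+ libraries. The log2 fold change was −3.27 ± 0.40 (SE, adjusted p = 0.00033), and −2.59 (adjusted p = 0.00334) without EpCAM- replicates 2 and 3.

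*Hdc* (ENSMUSG00000027360, chr2:126593667-126619299), histidine decarboxylase, which forms histamine, fell furthest of the tested genes. The EpCAM+ replicates 1 to 4 held 1.83, 2.55, 3.62 and 5.82 CPM and the EpCAM- replicates 50.0, 45.7, 74.4 and 63.1 CPM. The gap between the groups was wide, from 5.82 to 45.7 CPM. For *Hdc* the log2 fold change was −4.08 ± 0.30 (SE, adjusted p = 6.84e-05), a level 16.9 times higher in EpCAM-.

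*Il1rl1* (ENSMUSG00000026069, chr1:40429570-40465415), the IL-33 receptor known as ST2, was at 0.717, 1.92, 0.948 and 2.13 CPM in EpCAM+ and at 12.1, 14.5, 26.6 and 25.4 CPM in EpCAM- replicates 1 to 4. EpCAM- replicates 3 and 4 were the high pair. Its log2 fold change was −3.77 ± 0.38 (SE, adjusted p = 0.000179).

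The 2 IgE receptor chains among the 10 genes differed in their results. *Ms4a2* (ENSMUSG00000024680, chr19:11615523-11623719) was at 1.11, 1.13, 1.78 and 2.98 CPM in EpCAM+ and at 9.46, 14.2, 23.6 and 22.5 CPM in EpCAM- replicates 1 to 4. No EpCAM+ library came near the EpCAM- range, and the log2 fold change was −3.32 ± 0.38 (SE, adjusted p = 0.00025). *Fcer1a* (ENSMUSG00000005339, chr1:173221284-173227214) was at 2.22, 3.56, 1.73 and 0.841 CPM in EpCAM+ and at 2.74, 6.42, 4.29 and 1.91 CPM in EpCAM-. Here the groups overlapped, but within each replicate number the EpCAM+ library was the lower, in 4 of 4 pairs. The log2 fold change of *Fcer1a* was −0.87 ± 0.46 (SE, adjusted p = 0.149), and with the replicate number as a block it was −0.89 ± 0.24 (adjusted p = 0.0166), which passed the test. Without EpCAM- replicates 2 and 3 it was −0.15 (adjusted p = 0.841). Per length, as the authors' FPKM, the ratio of *Ms4a2* to *Fcer1a* was 0.403, 0.256, 0.832 and 2.85 in EpCAM+ and 2.78, 1.78, 4.42 and 9.51 in EpCAM- replicates 1 to 4. The ratio was lower in EpCAM+ within every replicate number, though the groups overlapped through EpCAM+ replicate 4.

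*Prss34* (ENSMUSG00000056399, chr17:25298394-25300161), the protease mMCP-11 of basophils, did not separate the groups. It was at 8.28, 7.18, 0.334 and 5.63 CPM in EpCAM+ and at 9.71, 0.664, 8.37 and 5.72 CPM in EpCAM- replicates 1 to 4. A single library was near 0 in each group, replicate 3 in EpCAM+ with 6 reads and replicate 2 in EpCAM- with 9 reads. The log2 fold change was −0.20 ± 0.77 (SE, adjusted p = 0.848). Without EpCAM+ replicate 3 it was 0.19 (adjusted p = 0.823) and without EpCAM- replicate 1 it was 0.11 (adjusted p = 0.925), so the data fix no direction for *Prss34*.

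**Figure D2:**
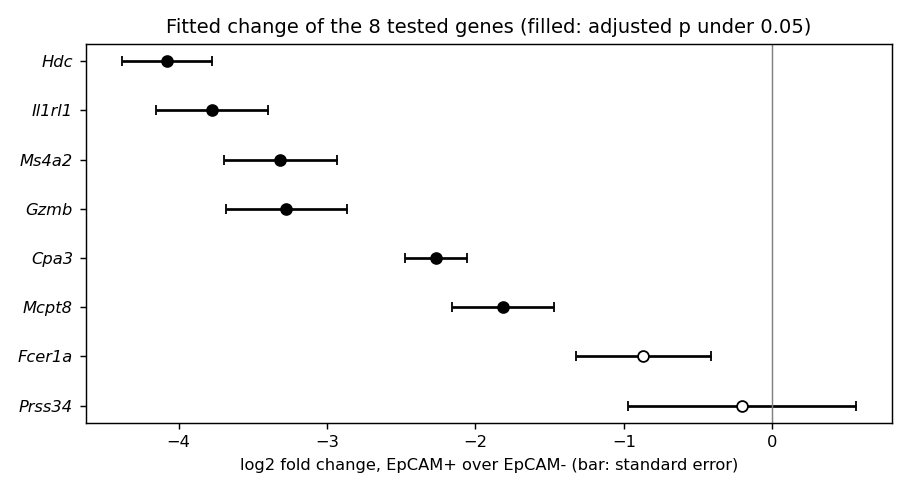
Fitted log2 fold change (x axis, EpCAM+ over EpCAM-) of the 8 tested genes, with the standard error as the bar and filled points for an adjusted p under 0.05. *Hdc* is the lowest at −4.08 and *Mcpt8* the weakest of the 6 filled points at −1.82, while *Fcer1a* and *Prss34* are open.

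*Cma1* (ENSMUSG00000022225, chr14:55941451-55944675), the mast cell chymase mMCP-5, had no read in the 4 EpCAM+ libraries and 10, 220, 181 and 18 reads in EpCAM- replicates 1 to 4. Replicates 2 and 3 held most of them. Set against the highest 3-read floor of an EpCAM+ library, the mean EpCAM- level of 7.63 CPM made *Cma1* at least 39.0-fold lower in EpCAM+, and at least 24.3-fold lower without EpCAM- replicate 2 (exact two-sided permutation test of CPM, n = 4 per group, p = 0.0286, the smallest that 4 libraries against 4 allow). *Tpsb2* (ENSMUSG00000033825, chr17:25366550-25368094), the mast cell tryptase mMCP-6, also had no read in EpCAM+ and 0, 159, 70 and 14 reads in EpCAM- replicates 1 to 4. Its mean EpCAM- level of 4.38 CPM was at least 22.4-fold above that floor, and at least 9.87-fold without EpCAM- replicate 2 (exact two-sided permutation test, n = 4 per group, p = 0.143). Both genes were thus highest in EpCAM- replicates 2 and 3, and EpCAM- replicate 1 had none of *Tpsb2* and little of *Cma1*. In EpCAM- replicates 1 and 4 *Cma1* was at 0.623 and 1.32 CPM and *Tpsb2* at 0 and 1.03 CPM, against the floor of 0.196 CPM. The bounds therefore rest on EpCAM- replicates 2 and 3, and without both of these they would be far smaller.

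In FPKM, which is per length, *Cpa3* led in EpCAM- at 288 ± 97.9 (SD, n = 4), followed by *Mcpt8* at 41.6 ± 10.5 and *Hdc* at 33.8 ± 7.41, whose ranges overlapped. *Ms4a2* came after them at 14.9 ± 5.63 FPKM, below every value of *Hdc*. This order depends on the length used, and on CPM per kilobase of the listed gene length *Ms4a2* (6.20) came after *Cma1* (6.996) and *Gzmb* (6.76), with *Hdc* at 9.12. Each of the remaining genes overlapped its neighbor in the order, from *Cma1* at 6.81 ± 6.99 FPKM down to *Tpsb2*, which ranged from 0 to 10.4 FPKM. In EpCAM+ *Cpa3* again led, at 63.3 ± 5.52 FPKM, and *Mcpt8* followed at 12.5 ± 6.47. The next in EpCAM+ were *Prss34* at 4.50 ± 2.96 and *Fcer1a* at 2.37 ± 1.33 FPKM, both above *Hdc* at 2.11 ± 1.03 by their means, with overlapping ranges.

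Several of the 10 genes lie in clusters of related genes, and their neighbors were read at the same time. The chymase locus on chromosome 14, from *Cma1* to *Gzmb* (chr14:55941451-56262260), holds 15 protein-coding genes, of which 6 had no read in any library. Its 3 tested genes, *Mcpt8*, *Gzmb* and *Ctsg*, all fell. *Ctsg*, the gene of cathepsin G, a granule protease that neutrophil precursors and mast cells share, was at 128 ± 88.2 CPM (SD, n = 4) in EpCAM+ and 1403 ± 202 CPM in EpCAM- (log2 fold change −3.46 ± 0.42, adjusted p = 0.000326). The mast cell chymase *Mcpt4* had 71 reads, all in EpCAM- replicate 2. *Mcpt1* had 16 of its 17 reads and *Mcpt2* 17 of its 25 reads in that library, and neither had a read in EpCAM+. The rarer chymases were thus highest in the same EpCAM- library as *Tpsb2* and *Cma1*. These near-identical chymases can share reads, and how reads that align to several genes were counted is not given in the sources used here.

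**Figure D3:**
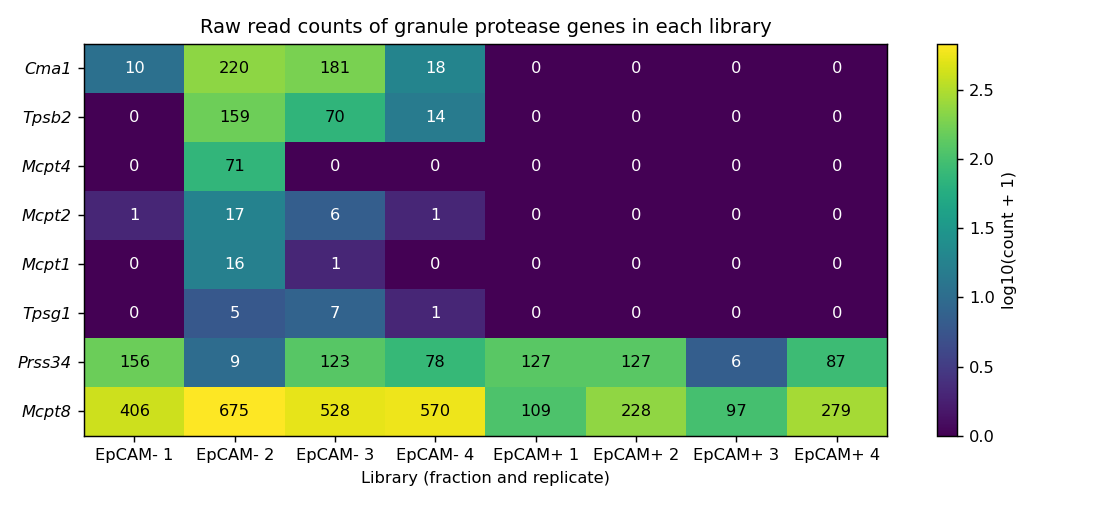
Raw read counts (numbers, with the color as log10 of the count plus 1) of 8 granule protease genes (y axis) in the 8 libraries (x axis, group and replicate). The first 6 genes have 0 reads in all 4 EpCAM+ libraries and most of their reads in EpCAM- replicates 2 and 3, while *Prss34* and *Mcpt8* were read in every library.

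On chromosome 17 the tryptase locus (chr17:25298394-25374442) holds 6 protein-coding genes, of which 3 had no read, among them *Tpsab1*, the gene of the tryptase mMCP-7. *Tpsg1*, the membrane tryptase next to *Tpsb2*, had 13 reads, all in EpCAM- libraries. On chromosome 1 *Il1rl1* lies between other receptors of the IL-1 family (chr1:40074079-40551705), all 6 of which were tested. *Il1rl1* was the only member of this cluster that fell, whereas *Il18r1*, whose model begins right after it, rose by 1.88 ± 0.28 on the log2 scale (SE, adjusted p = 0.00074), and *Il1r2*, a decoy receptor of IL-1, rose by 1.69 (adjusted p = 0.00983). *Il1r1* and *Il18rap* rose by 0.82 each, and *Il1rl2* had a log2 fold change of 0.45 (adjusted p = 0.0662).

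Around the receptor, the IgE signaling genes moved both ways. Of 20 tested genes in this list 8 rose, 2 fell and 10 did not pass, with a median log2 fold change of 0.18 against 0.02 over all tested genes. The called share, 50%, lay near the 42.6% of all tested genes, and the 8 became 4 without EpCAM- replicates 2 and 3. In the other pathway lists below the called share was between 28.6% and 60%. *Fcer1g*, the gamma chain, fell from 118 ± 15.5 CPM in EpCAM- to 54.8 ± 6.18 in EpCAM+ (SD, n = 4, log2 fold change −1.11 ± 0.11, adjusted p = 0.000181). The adaptors *Lcp2* (SLP-76) and *Lat* and the kinase *Fyn* rose by 0.70, 1.03 and 0.63 on the log2 scale (adjusted p = 0.000526, 0.000844 and 0.00112). Among 10 genes that restrain this pathway 3 rose and 2 fell: the inhibitory Fc receptor *Fcgr2b* fell by 1.14 and the inhibitory receptor *Milr1* (Allergin-1) by 0.81 on the log2 scale, and *Cd200r1* rose by 0.78 and the lipid phosphatase gene *Inpp5d* (SHIP1) by 0.52 (adjusted p = 0.000764, 0.0105, 0.00134 and 0.00634).

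For the IL-33 receptor pathway 9 genes were tested, of which 2 rose and 1 fell, with a median of 0.08. *Sigirr*, an inhibitor of IL-1 family receptors, rose by 0.55 (adjusted p = 0.00124). The calls of *Irak3* (0.33, adjusted p = 0.0388) and *Map3k7* (−0.34, adjusted p = 0.036) were lost in 7 and 6 of the 8 fits that left out a library, with adjusted p up to 0.0915 and 0.0949, and *Irak3* kept its call only without EpCAM- replicate 1. *Il1rap*, the co-receptor that *Il1rl1* needs, had a log2 fold change of 0.08 (adjusted p = 0.688). Among 13 tested cytokine receptor genes 4 rose and 2 fell, with a median of 0.23. The count of 2 became 0 without EpCAM+ replicate 3 or without EpCAM- replicate 3, and *Csf2rb*, the shared beta chain of the IL-3 receptor (log2 fold change −0.42, adjusted p = 0.0438), lost its call in 5 of the 8 fits that left out a library (adjusted p up to 0.104). The shared gamma chain *Il2rg* rose by 0.65 (adjusted p = 0.000707), *Crlf2*, a chain of the TSLP receptor, by 0.48 (adjusted p = 0.00109) and *Kit*, the receptor of stem cell factor, by 0.45 (adjusted p = 0.0276). *Il3ra*, the alpha chain of the receptor for the basophil growth factor IL-3, fell by 0.52 (adjusted p = 0.0218), a call lost without EpCAM+ replicate 1, EpCAM+ replicate 3 or EpCAM- replicate 3 (adjusted p = 0.0527, 0.0652 and 0.0679). The call of *Kit* was lost without EpCAM+ replicate 1, EpCAM+ replicate 3 or EpCAM- replicate 4 (adjusted p = 0.0721, 0.0815 and 0.0517).

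Genes for granule storage and mediators moved both ways. Besides *Ctsg*, *Slc18a2*, the vesicle transporter of histamine and other monoamines, rose by 0.84 ± 0.16 (SE, adjusted p = 0.00262) and *Cd63*, a granule membrane protein, by 0.46 (adjusted p = 0.011). *Srgn*, the proteoglycan core that binds granule proteases, was at 1320.3 ± 89.3 CPM (SD, n = 4) in EpCAM+ and 1296 ± 144 CPM in EpCAM- (adjusted p = 0.847). In the list of 7 genes that activate or inhibit granule proteases, the cystatin *Cst7* fell by 2.67 (adjusted p = 7.11e-05), and *Serpinb9*, an inhibitor of granzyme B, and the cystatin *Cst3* rose by 1.10 and 2.13 (adjusted p = 0.00027 and 0.00417). Of 9 tested genes for histamine and lipid mediators 4 rose and 1 fell, with a median of 0.46. *Hnmt*, which degrades histamine, rose by 0.85 (adjusted p = 0.00076), while *Alox5*, which begins leukotriene synthesis, fell by 2.52 (adjusted p = 0.000653). *Ptgs1* (COX-1) rose by 1.39 and *Hpgds*, the prostaglandin D synthase of hematopoietic cells, by 1.71 (adjusted p = 0.000882 and 0.00133). Histamine synthesis (*Hdc*) and degradation (*Hnmt*) transcripts thus moved in opposite directions.

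The cytokine list had 7 tested genes, of which 1 fell and 1 rose, and with the replicate block 3 rose, *Tnf* (adjusted p = 0.0399) and *Ccl4* (adjusted p = 0.0212) besides *Il4*. The chemokine *Ccl9* fell by 2.21 (adjusted p = 0.000971). *Il4*, the basophil cytokine, was at 2.08 ± 0.453 CPM (SD, n = 4) in EpCAM+ and 0.921 ± 0.396 in EpCAM- (log2 fold change 1.15, adjusted p = 0.022), and this call was lost without EpCAM+ replicate 1, EpCAM+ replicate 4 or EpCAM- replicate 3 (adjusted p = 0.0589, 0.0562 and 0.0594). Among 5 tested genes for other surface proteins, *Fcgr3*, a low-affinity receptor for IgG, fell by 3.84 ± 0.42 (SE, adjusted p = 0.000218) and *Emb* (embigin) by 0.76 (adjusted p = 0.00553), while *Itga2* (CD49b), a surface marker of basophils and natural killer cells, rose by 1.55 (adjusted p = 0.000858). With the replicate block *Itgb7* was also higher (adjusted p = 0.0159).

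Among 16 transcription factor genes of mast cells and basophils 4 fell, 2 rose and 10 did not pass, with a median log2 fold change of −0.06. *Gata1*, an erythroid, megakaryocyte and mast cell regulator, fell from 178 ± 73.0 CPM in EpCAM- to 42.0 ± 8.08 CPM in EpCAM+ (SD, n = 4, log2 fold change −2.08 ± 0.27, adjusted p = 0.000397). *Cebpa*, a myeloid factor needed for basophil formation, fell by 1.38 ± 0.18 (adjusted p = 0.000405), *Lmo4* by 0.70 (adjusted p = 0.0015) and *Cebpb* by 0.46 (adjusted p = 0.0166). *Gata2*, which acts early in both mast cells and basophils, was at 205 ± 15.1 CPM in EpCAM+ and 169 ± 30.9 in EpCAM- (log2 fold change 0.28, adjusted p = 0.096), and it was called higher with the replicate block (adjusted p = 0.0434) and with upper-quartile scaling. *Mitf*, a regulator of mast cell genes, was at 3.06 ± 0.566 and 2.73 ± 0.864 CPM (adjusted p = 0.658). *Gata3* rose by 1.80 and *Bhlhe40* by 2.78 (adjusted p = 0.000137 and 0.00118). The other factors, *Hes1*, *Runx1*, *Irf8*, *Gfi1*, *Nfil3*, *Ikzf1*, *Spi1* and *Tal1*, had log2 fold changes from −0.28 to 0.78 and did not pass.

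**Figure D4:**
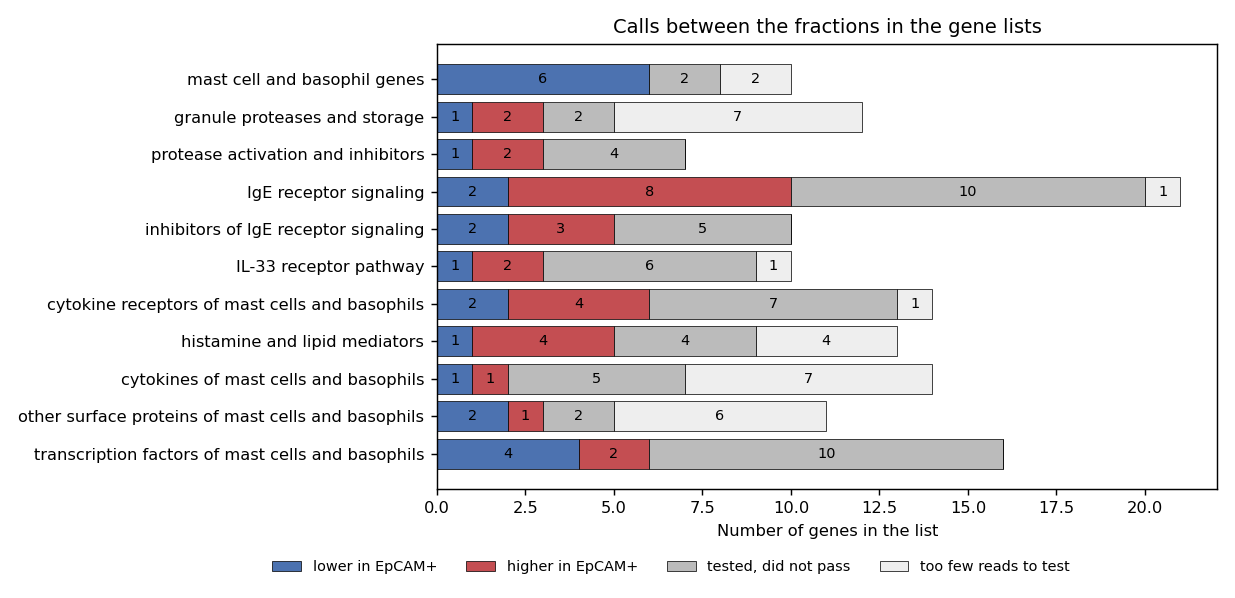
Number of genes (x axis) in each list (y axis) that were lower in EpCAM+ (blue), higher (red), tested without passing (dark gray) or too rarely read to test (light gray). The 10 mast cell and basophil genes have 6 lower and 0 higher, the IgE receptor signaling list has 2 lower and 8 higher, and the transcription factor list 4 lower and 2 higher.

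Some of the 10 genes, such as *Gzmb* and *Il1rl1*, are also known from other blood cells, so marker lists of other blood cells were measured beside them. The summed level of 9 neutrophil precursor markers was 1095 to 1848 CPM in EpCAM+ and 11912 to 18517 CPM in EpCAM- libraries, with 4 of 9 tested genes lower, and *Mpo* fell by 3.74 (adjusted p = 3.81e-05). The other 5 neutrophil precursor markers did not pass the test. Erythroid markers summed to 55.8 to 248 CPM in EpCAM+ and 1995 to 6892 CPM in EpCAM-, with 7 of 8 genes lower. The remaining erythroid gene, *Hbb-bt*, was higher (log2 fold change 1.35, adjusted p = 0.0146). In EpCAM- the mean of *Mpo* alone was 10409 CPM and that of *Car1* alone 3435 CPM. The summed levels of both lists were lower in EpCAM+, as were the 6 genes that fell, and the part of these lists in the result was not tested. The 9 LSK markers summed to 2366 to 2528 CPM in EpCAM+ and 1342 to 2144 CPM in EpCAM-, and 7 of the 9 rose, among them *Hlf* by 1.91 (adjusted p = 0.00025). The called share was 44.4% in the neutrophil precursor list, 100% in the erythroid list and 77.8% in the LSK list. Over all tested genes it was 42.6%, made up of 20.8% lower and 21.8% higher, and the share of the neutrophil precursor list lay near this.

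*Gzmb* is the granzyme of natural killer and cytotoxic T cells, whose 12 markers summed to 640.4 to 804 CPM in EpCAM+ and 686 to 886 CPM in EpCAM-. Nearly all of that sum was *Nkg7* (728 ± 77.8 and 795 ± 83.9 CPM, SD, n = 4), which did not pass the test (adjusted p = 0.353), and the cytotoxic genes *Prf1* and *Gzma* were at or near 0 in both groups, at a mean of 0.165 and 0.0325 CPM in EpCAM+ and 0.129 and 0.017 CPM in EpCAM-. Other genes of this list were scarce but more often read in EpCAM+, with *Klrd1* at a mean of 1.79 against 0.33 CPM, *Ncr1* at 0.848 CPM against no read and *Klre1* at 0.174 CPM against no read, and none of the 3 had enough reads for the test. DESeq2 called 3 genes of the list higher, and the fit on genes with at least 1 read called 4. Genes such as *Ncr1* and *Klre1* enter these fits only through their EpCAM+ reads, so these calls are no further support. *Il1rl1* is also a gene of group 2 innate lymphoid cells, whose 9 markers summed to 25.4 to 29.1 CPM in EpCAM+ and 28.4 to 51.8 CPM in EpCAM-, with *Ltb4r1* lower, *Rora* higher, and *Il2ra* and *Bcl11b* without a read in EpCAM-. Eosinophil markers summed to 7.24 to 54.9 CPM in EpCAM+ and 26.4 to 80.0 CPM in EpCAM-, which are overlapping ranges. Of 5 tested eosinophil genes 1 was lower, *Siglecf* (log2 fold change −1.83 ± 0.23, adjusted p = 0.000331), and *Epx* as well with the replicate block (adjusted p = 0.0300). The share without the block, 20%, lay near the 20.8% of all tested genes that were lower. Markers of plasmacytoid dendritic cells, which express *Fcer1a* in humans, summed to 260.0 to 331 CPM in EpCAM+ and 198 to 281 CPM in EpCAM-. Of 6 tested genes in this list 3 rose, 2 did not pass and 1 fell, *Cox6a2* (log2 fold change −2.43, adjusted p = 0.00287). With at least 10 reads required in every library, 1 rose and 1 fell. *Siglech*, too scarce for the test, was at a mean of 0.974 CPM in EpCAM+ and 0.0963 CPM in EpCAM-. Monocyte markers summed to 71.1 to 435 CPM in EpCAM+ and 226 to 856 CPM in EpCAM-, and megakaryocyte markers to 402 to 647 and 127 to 355 CPM.

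**Figure D5:**
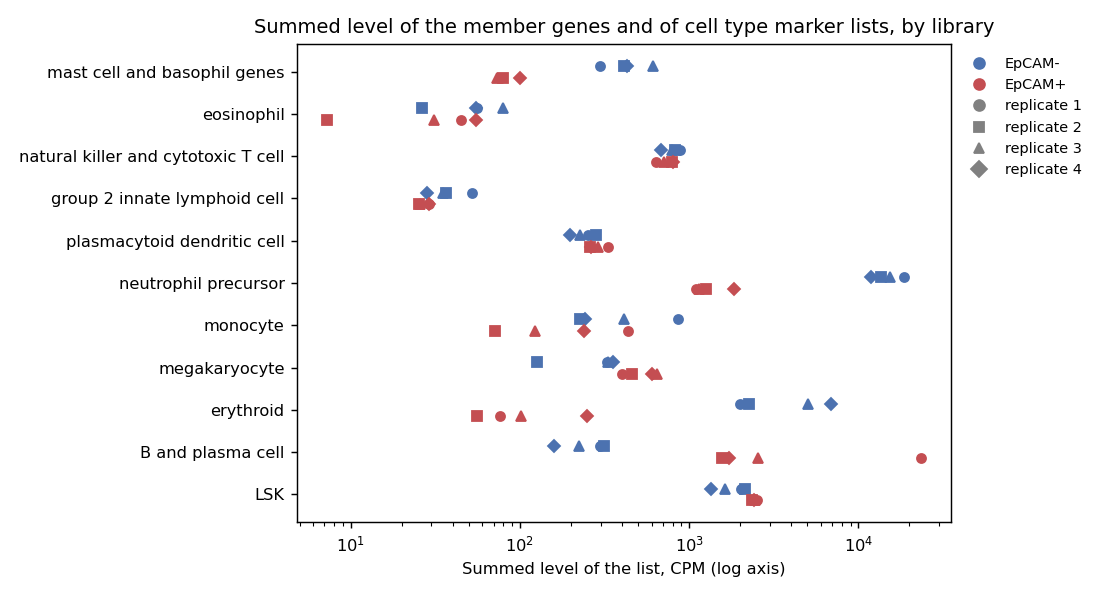
Summed level (x axis, CPM, log axis) of the 10 genes and of the marker lists of 10 cell types (y axis) in each library, EpCAM- in blue and EpCAM+ in red, with the replicate number as the marker. The 10 genes, the neutrophil precursor list and the erythroid list lie lower in every EpCAM+ library than in every EpCAM- library. The megakaryocyte, B and plasma cell and LSK lists lie higher in every EpCAM+ library, and the other lists, among them natural killer and eosinophil, overlap between the groups.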

How the data were processed

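RNA of *Zeb1-/-* EpCAM+ and EpCAM- LSK cells (4 libraries each) was amplified by the authors with SMART-Seq v4 and sequenced as paired ends. Per the submitters' notes, reads were aligned to GRCm38.p6 with STAR 2.6.1d, counted with featureCounts 1.5.0-p3 and compared with DESeq2 1.20.0. The deposited table holds raw read counts per gene without normalization, which all tests here use, FPKM that the authors computed from counts and gene length, and the gene length itself as a column of the deposited table. The FPKM imply other gene lengths than that column for several genes (1677 against 6389 bases for *Hdc*), and FPKM are given here only to compare levels between genes. Columns of the authors' own comparisons, with fold changes and p-values between the 2 groups and between single pairs of libraries, were not used. The annotation release, the strand setting and how multi-mapping reads were counted are not given in the sources used here.

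The member genes, the lists and the tests were chosen with earlier results of these data known. Genes were kept with edgeR's filterByExpr (minimum count 10), TMM-scaled and tested with edgeR 4.0.16 (glmQLFit and glmQLFTest, two-sided, R 4.3.3, limma 3.58.1), with Benjamini-Hochberg adjustment over all tested genes. For genes without a read in EpCAM+ the fold is a lower bound against 3 reads in the EpCAM+ library where 3 reads are the highest CPM, and bounds cover counting error only. Named are all members, the genes of the sort and deletion, up to 4 passing genes per list by adjusted p, the tested transcription factors and the genes of the member loci. *Mcpt1*, *Mcpt2*, *Tpsg1*, *Srgn*, *Il1rap*, *Kit*, *Csf2rb*, *Tnf*, *Ccl4*, *Itgb7*, *Epx*, *Hbb-bt*, *Car1* and the scarce markers were named after their values were seen. Promoter windows come from RefSeq (GRCm38.p6), and Python 3.11.15 with matplotlib 3.10.9 made the figures. On simulated counts with 13560 genes, 141 of 198 tested genes changed 2-fold were called, and 11 of 152 calls were false.

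The replicate numbers were taken to pair the libraries, which the labels do not state. Only the fit with the replicate block uses this pairing, and the main test and the permutation tests do not. The study's text gives 4 mice, and libraries of the same number deviated together from their group means (correlation across genes 0.205 to 0.356 in 4 pairs, −0.216 to 0.0396 in 12 pairs of different numbers). Genes are not independent replicates, and what a number shares is not stated. Within groups, counts of the 12 pairs of libraries differed by far more than sampling noise (chi-square of at least 9.80 per degree of freedom). Alternatives were DESeq2 1.42.0, other scalings, other count filters, the replicate block and each library left out, and the fit without EpCAM- replicates 2 and 3 was added after the data were seen.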

Additional observations from a re-analysis of the deposited data

How the results depend on the processing

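*Cpa3*, *Mcpt8*, *Ms4a2*, *Gzmb*, *Hdc* and *Il1rl1* were lower with an adjusted p under 0.05 in all 16 alternatives (highest adjusted p 0.0309, for *Mcpt8*). Leaving out each library in turn, their log2 fold changes ranged from −2.42 to −2.02, −2.17 to −1.59, −3.68 to −3.13, −3.46 to −2.76, −4.43 to −3.88 and −4.01 to −3.57, in that order, and 6 of the 10 genes were called each time. With the replicate block, 7 were called: *Fcer1a* had a log2 fold change of −0.89 (adjusted p = 0.0166), and the pairing changed no other call among the 10 genes. In the other lists it ended 0 calls and added 15. DESeq2 and the fit on genes with at least 1 read called 8, but *Cma1* and *Tpsb2* enter these fits only through their EpCAM- reads, so the added calls are no further support. The log2 fold change of *Fcer1a* ranged from −1.26 to −0.51 without single libraries, was −0.15 without EpCAM- replicates 2 and 3, and that of *Prss34* from −0.58 to 0.19, being positive without EpCAM+ replicate 3 (0.19) and without EpCAM- replicate 1 (0.11). *Prss34* has no value with at least 10 reads required in every library. Over all genes, 4616 to 5894 were called without single libraries, against 5779 with all, and 3625 without EpCAM- replicates 2 and 3, where fewer libraries were compared. Of 640 counts of higher or lower genes in the pathway and marker lists under the alternatives, 57 differed from the reported count by over 1.5 times, 17 of them in the IL-33 list and 10 in the cytokine receptor list. *Cebpb* lost its call with library totals alone. The read counts limit what can be said of *Cma1*, *Tpsb2* and the rarer chymases, which were too scarce for the reported test.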

Other observations

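Across the 8 libraries, the deviations of *Cpa3* from its group means (log2 CPM) were most like those of *Rtca* (Pearson's r 0.96), *Nf2* (0.94), *Mcmbp* (0.94), *Adprhl2* (0.93) and *Traf3ip1* (0.92), out of 9288 other genes with a mean log2 CPM of at least 3. None of these is a gene of the lists above. The values describe the 8 libraries and carry no test, and libraries of the same replicate number are not independent.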
